A study of Mus musculus with 9 samples.

Results

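Transcripts of PPARalpha target genes and of fatty acid oxidation were examined in mouse liver with and without depletion of the gut microbiota. The members were 30 genes chosen by symbol, and each symbol matched 1 of the 54393 genes of the deposited count table. All 30 passed the filter on low counts, which left 14873 genes to test. Livers came from mice of the strain given as C56Bl/6j, and both groups were fed the purified diet AIN-76a. The control group (5 libraries, replicates 1 to 5) received no antibiotics. The antibiotics group (4 libraries, replicates 1, 2, 3 and 5) received antibiotics that the gut does not absorb, to deplete its bacteria. No source used here gives the agents, the dose, the length of treatment, or the age and feeding state of the mice. The question was how liver transcripts differ between conventional and microbiota-depleted mice.

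PPARalpha is a nuclear receptor that binds fatty acids, pairs with the retinoid X receptor and switches on genes for fatty acid breakdown in the liver, above all during fasting. Long-chain fatty acids are joined to coenzyme A, carried into mitochondria by the carnitine shuttle and shortened by beta-oxidation, and the acetyl-CoA can leave the liver as ketone bodies. Very long chains are first shortened in peroxisomes, and cytochromes of the Cyp4a family oxidise the far end of the chain (omega-oxidation). PPARalpha acts through repeats of the half-site AGGTCA spaced by a single base.

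The promoters of 3 members are shown because they bear on the receptor and on the results: Fabp1 holds the 1 spaced repeat found among the members, and Cpt1a and Pdk4 came nearest to passing the test, in opposite directions. Each run is the 250 bases before the RefSeq start (GRCm38.p6), 5′ to 3′ on the strand of the gene, with AGGTCA half-sites and the spaced repeat, on either strand, in capitals.
Fabp1 (chr6:71199629-71199878, plus strand): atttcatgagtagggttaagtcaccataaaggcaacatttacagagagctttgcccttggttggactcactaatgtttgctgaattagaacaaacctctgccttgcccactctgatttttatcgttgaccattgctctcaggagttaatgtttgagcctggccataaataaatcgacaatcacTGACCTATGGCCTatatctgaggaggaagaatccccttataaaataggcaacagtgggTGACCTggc
Cpt1a (chr19:3323051-3323300, plus strand): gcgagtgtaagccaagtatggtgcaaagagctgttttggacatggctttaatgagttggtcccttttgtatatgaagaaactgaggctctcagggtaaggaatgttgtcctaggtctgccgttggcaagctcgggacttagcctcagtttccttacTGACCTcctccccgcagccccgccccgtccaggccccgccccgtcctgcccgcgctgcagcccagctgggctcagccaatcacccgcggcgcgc
Pdk4 (chr6:5496279-5496528, minus strand): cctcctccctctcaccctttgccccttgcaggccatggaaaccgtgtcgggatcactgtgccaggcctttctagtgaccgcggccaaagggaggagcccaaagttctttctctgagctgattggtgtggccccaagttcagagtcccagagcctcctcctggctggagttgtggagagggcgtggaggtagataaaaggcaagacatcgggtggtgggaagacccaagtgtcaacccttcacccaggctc
RefSeq windows from 250 bases before to 50 bases after the start were matched by symbol for 23 of the 30 members, in 26 windows; Acaa2, Decr1, Cyp4a10, Cyp4a14, Cyp4a31, Vnn1 and Angptl4 had none. The repeat AGGNCANAGGNCA, searched on both strands, occurred in 1 of the 26 windows, against 0.381% of all 32851 windows. In Fabp1 it reads TGACCTATGGCCT, on the strand opposite to the gene, from -67 to -55, counting the base before the start as -1. The strict form AGGTCANAGGTCA occurred in 0 of the 26 windows and in 0.0396% of all. The single half-site AGGTCA, which is part of those repeats, occurred in the 250 upstream bases of 6 of the 26 windows, against 14.0% of all windows. Cpt1a has 1, at -94, and Pdk4 has 0. These matches describe letters only.

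Library totals ran from 28156248 to 49628737 estimated counts in controls and from 15422891 to 59179622 with antibiotics, where replicate 5 was the deepest of all 9 libraries and the others were shallower than every control. Levels are given as CPM, the counts of a gene scaled to a common library size after TMM normalisation. The hepatocyte markers were abundant in every library (6 genes summing to 79618 to 95018 CPM). Of the markers of other tissues, the adipocyte list summed to 6.74 to 8.40 CPM in controls and 6.54 to 10.9 CPM with antibiotics. Of the 5 pancreatic acinar cell markers, Prss2 and Pnlip were at 0 in all libraries, as was Myh4 of the 5 muscle markers. The pancreatic list still summed to 9.89 to 15.01 CPM in controls and 10.26 to 20.91 CPM with antibiotics. The muscle list summed to 0.661 to 1.21 CPM in controls and 0.196 to 0.884 CPM with antibiotics. The 5 Kupffer cell markers summed to 129 to 355 CPM in controls and 131 to 160 CPM with antibiotics. All 5 had log2 fold changes below 0, as did the 4 tested lymphocyte markers, and 0 of either list passed. Other lists of 5 were mixed: 4 endothelial, 3 stellate and 2 bile duct cell markers lay below 0 and the rest above, with 0 passing. The bile duct list summed to 33.8 to 93.3 CPM in controls and 33.4 to 66.6 CPM with antibiotics. The 13 mitochondrially encoded mRNAs summed to 44895 to 65301 CPM in controls and 49480 to 73733 CPM with antibiotics, and 13 of 13 had log2 fold changes above 0, with 0 passing. Alternative fits thinned the libraries to the smallest total or left out the mitochondrially encoded mRNAs, and both are given with the other alternatives at the end. Beyond those fits, whether these differences had a part in the results on the members was not tested. In bulk tissue, fewer cells of a type and less RNA per cell cannot be told apart.

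Among the members, most transcripts for the uptake of fatty acids into mitochondria and for beta-oxidation had slightly higher means with antibiotics. Those of the hormone Fgf21, of Pdk4 and of Cyp4a10, Cyp4a14 and Cyp4a31 had lower means, and no single member passed the test. The largest difference upward was in Cpt1a, the carnitine palmitoyltransferase that sets the pace of mitochondrial fatty acid entry, at 1.38-fold. The largest downward was in Fgf21, a fasting hormone secreted by the liver, at 0.556-fold. In the quasi-likelihood test of edgeR, with p adjusted over all tested genes (Benjamini-Hochberg), 0 of 30 members had an adjusted p under 0.05, against 2.68% of all genes (1.63% higher and 1.05% lower). Without adjustment, 8 of 30 had a p under 0.05, against 18.5% of all genes. Of these members 6 were higher with antibiotics, against 9.6% of all genes, and 2 were lower, against 8.87%. DESeq2 called 5 members, against 7.28% of the 13409 genes to which it gave an adjusted p: Cpt1a, Acadl and Acadm were higher (3.83% of those genes were) and Fgf21 and Pdk4 lower (3.45%). With limma-voom 0 members were called, against 2.78% of all genes (1.82% higher and 0.955% lower).

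Over all 30 members, 21 had a log2 fold change above 0, as did 48.6% of all tested genes, and the median was 0.14 against -0.01 for all genes. Of the 18 members of the carnitine shuttle, of mitochondrial beta-oxidation and of peroxisomal oxidation, 17 lay above 0. Of the 3 omega-oxidation members 0 did, and of the 6 members grouped as other PPARalpha targets 1 did. The wider lists of these last groups went the other way: 9 of 11 further omega-oxidation genes (median 0.17) and 17 of 23 further PPARalpha targets (median 0.18) lay above 0. Of 17 further genes of uptake, activation and the shuttle, 10 lay above 0 and 7 below (median 0.04). Of the further mitochondrial and peroxisomal genes, 14 of 14 and 24 of 26 lay above 0 (medians 0.14 and 0.08). The groups did not overlap in 4 of 30 members, against 8.88% of all tested genes: Cpt1a, Acadl and Acadm were higher in every antibiotics library (4.59% of all genes were), and Pdk4 was lower (4.29%). The compartments were set with earlier results of these data known, so their signs are a description.

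**Figure D1:**
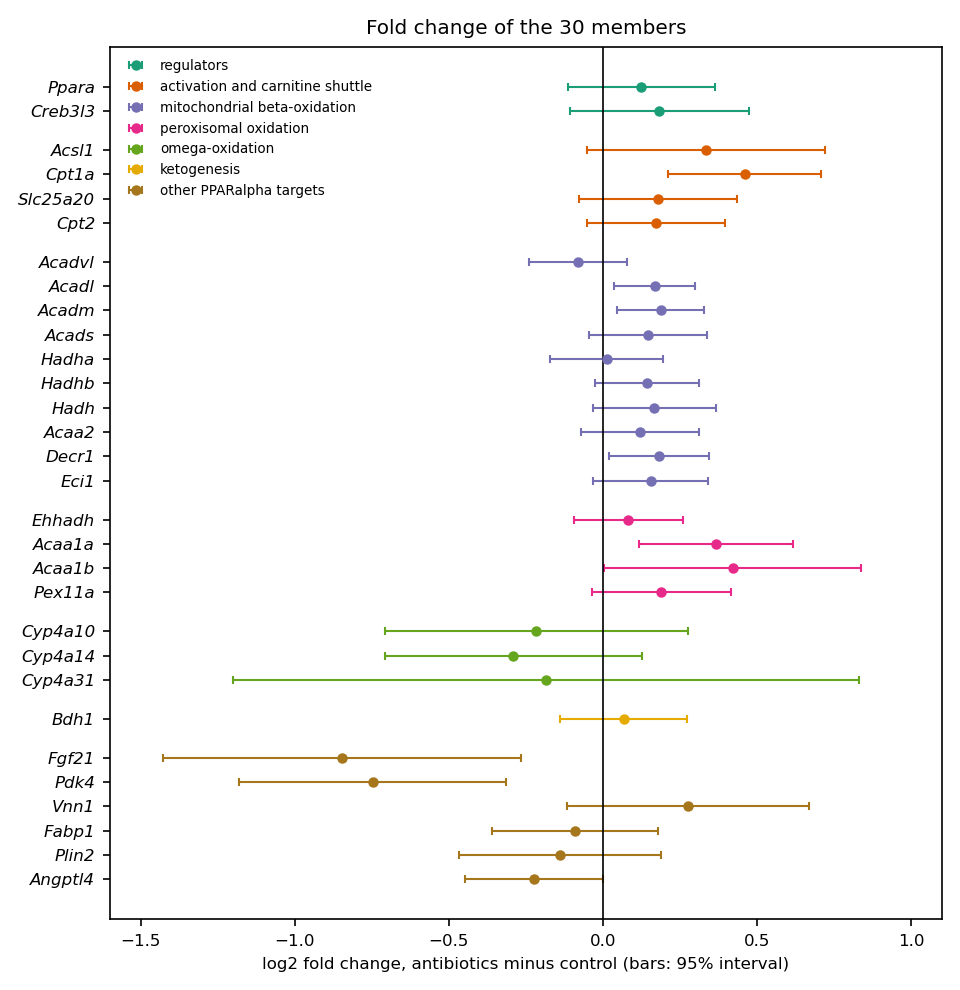
Log2 fold change of each member (x axis, antibiotics minus control, 5 control and 4 antibiotics libraries), with 95% intervals from the edgeR fit as bars and compartments as colours. The 17 points above 0 among 18 shuttle, mitochondrial and peroxisomal genes contrast with Fgf21 and Pdk4 at -0.85 and -0.75, and the intervals are not adjusted for the number of genes.

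The receptor gene itself differed little. Ppara (chromosome 15, 85734983 to 85802819, GRCm38) measured 128, 96.9, 139, 131 and 109 CPM in control libraries 1 to 5 and 133, 138, 115 and 141 CPM in antibiotics libraries 1, 2, 3 and 5. The groups overlapped, and the fold change was 1.09 with a 95% interval from 0.925 to 1.29 (edgeR adjusted p = 0.582). Creb3l3, a liver transcription factor that works with PPARalpha on fasting genes such as Fgf21, measured 226 ± 44.3 CPM (SD, n = 5) and 256 ± 25.4 CPM (SD, n = 4), with control library 5 the highest of all at 296 CPM.

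In the carnitine shuttle all 4 members had means above the controls, with a median log2 fold change of 0.26. The 17 further genes of uptake, activation and the shuttle had a median of 0.04. Cpt1a (ENSMUSG00000024900.5, chromosome 19, 3322334 to 3385733) measured 389, 361, 501, 447 and 487 CPM in control libraries 1 to 5. In antibiotics libraries 1, 2, 3 and 5 it measured 585, 537, 610 and 674 CPM. Every antibiotics library was thus above every control. Its log2 fold change was 0.46 ± 0.11 (SE), with an edgeR adjusted p of 0.0585, just outside the threshold. Without control library 3 or 5 the adjusted p was 0.0429 or 0.0488, and over the 9 fits that each left out 1 library it ran from 0.0429 to 0.151.

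Acsl1, which joins long-chain fatty acids to coenzyme A, showed how much 1 control library weighed. It measured 557, 474, 600, 486 and 846 CPM in control libraries 1 to 5, and 858, 575, 717 and 835 CPM in antibiotics libraries 1, 2, 3 and 5. Control library 5 lay inside the antibiotics range, and the fold change was 1.26 (95% interval 0.964 to 1.65, edgeR adjusted p = 0.344). Slc25a20, the carrier that exchanges acylcarnitine for carnitine across the inner membrane, measured 59.4 to 66.6 CPM in controls 1 to 4 and 88.7 CPM in control 5, against 71.1 to 85.2 CPM with antibiotics. Cpt2, which turns acylcarnitine back into acyl-CoA in the matrix, measured 97.8 to 104 CPM in controls 1 to 4 and 130 CPM in control 5, against 104 to 134 CPM. Without control library 5 the median log2 fold change of the 4 genes was 0.40, and the edgeR adjusted p was 0.0763 for Acsl1 and 0.0637 for Slc25a20. These were the lowest of the 9 fits without 1 library, and the highest were 0.600 for Acsl1 and 0.695 for Slc25a20.

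Mitochondrial beta-oxidation differed by small amounts that went mostly 1 way: 9 of 10 members had a log2 fold change above 0, from 0.01 to 0.19, with a median of 0.15, and 0 passed. Acadm, the medium-chain acyl-CoA dehydrogenase, was held closely among controls at 224, 217, 217, 220 and 220 CPM and measured 264, 248, 233 and 254 CPM with antibiotics (libraries 1, 2, 3 and 5). The groups did not overlap, at a fold change of 1.14 (95% interval 1.03 to 1.26, edgeR unadjusted p = 0.0135, adjusted p = 0.149). Acadl, the long-chain dehydrogenase, measured 167, 162, 157, 162 and 166 CPM in controls and 189, 173, 182 and 188 CPM with antibiotics. Here too all antibiotics libraries were higher, at 1.12-fold (edgeR unadjusted p = 0.0177, adjusted p = 0.167). Decr1, the 2,4-dienoyl-CoA reductase needed for unsaturated chains, measured 163, 163, 148, 149 and 179 CPM in controls and 188, 174, 179 and 187 CPM with antibiotics, with control 5 inside the antibiotics range (edgeR unadjusted p = 0.0306, adjusted p = 0.216).

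The other mitochondrial members had edgeR adjusted p from 0.352 to 0.959. Acadvl, the very-long-chain dehydrogenase at the inner membrane, was the 1 member below 0, at 333 to 390 CPM in controls and 320 to 345 CPM with antibiotics (log2 fold change -0.08 ± 0.07 SE). Hadha and Hadhb encode both subunits of the trifunctional protein, which carries out the later steps on long chains, and stand side by side on chromosome 5 in opposite orientations. Hadha measured 263 ± 24.3 CPM (SD, n = 5) and 265 ± 15.3 CPM (SD, n = 4), and Hadhb 175 ± 13.2 and 193 ± 11.9 CPM. Hadhb shares 1428 nt at 99.8% identity with Gm13910 and 1426 nt at 97.6% with Gm9108, which makes the split of counts among them uncertain. Hadh (the short-chain hydroxyacyl-CoA dehydrogenase), Acads (the short-chain acyl-CoA dehydrogenase), Acaa2 (the mitochondrial thiolase) and Eci1 (an enoyl-CoA isomerase) had fold changes between 1.09 and 1.12. Antibiotics library 1 was the highest antibiotics library in 10 of 10 mitochondrial genes, and the highest of its group in 26.2% of all tested genes.

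**Figure D2:**
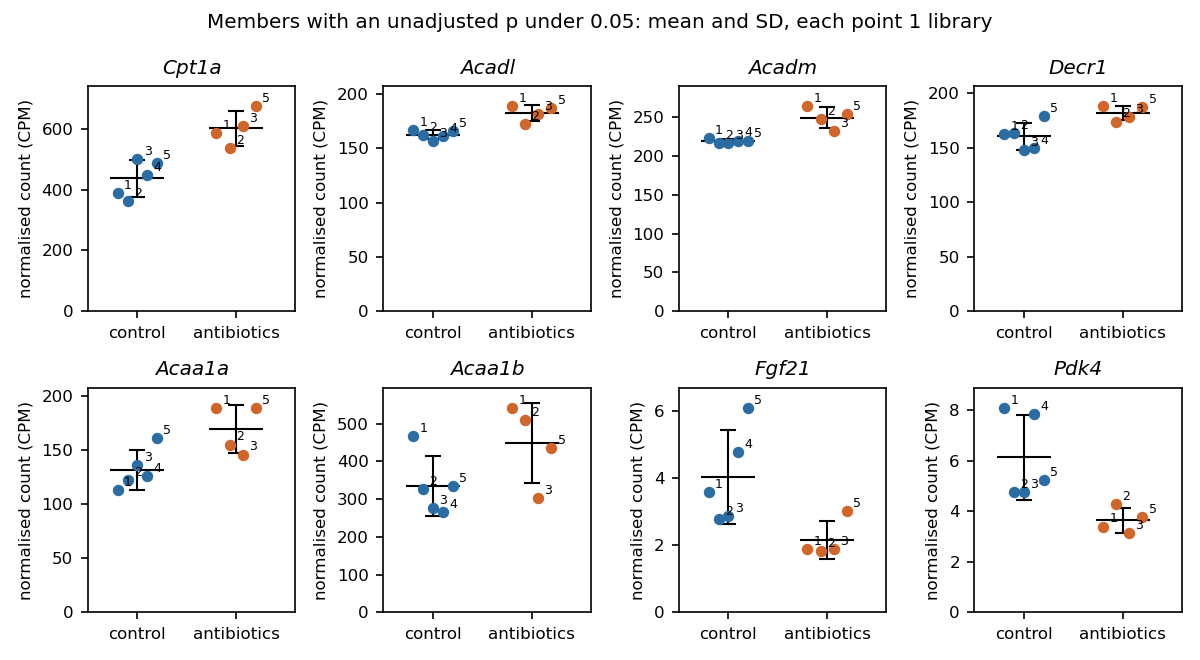
Normalised counts (y axis, CPM) of the 8 members with an unadjusted edgeR p under 0.05, 1 point per library with its replicate number, and bars for the mean and SD of each group. Cpt1a, Acadl and Acadm separate upward and Pdk4 downward, while in Decr1, Acaa1a, Acaa1b and Fgf21 the groups overlap.

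Peroxisomal members had a median log2 fold change of 0.28, against 0.15 for mitochondrial beta-oxidation and 0.26 for the shuttle. Their mean log2 level per library had an SD of 0.18 among antibiotics libraries, against 0.07 for mitochondrial and 0.14 for shuttle members. Among controls these SDs were 0.096, 0.089 and 0.22. Acaa1a, a peroxisomal thiolase, measured 113, 123, 136, 126 and 161 CPM in controls and 189, 155, 146 and 189 CPM with antibiotics (libraries 1, 2, 3 and 5), at 1.29-fold (edgeR unadjusted p = 0.00807, adjusted p = 0.114). Control 5 again overlapped the antibiotics libraries, and without it the edgeR adjusted p was 0.0433. Over the 9 fits that each left out 1 library, the adjusted p of Acaa1a ran from 0.0433 to 0.280. Acaa1b, its near copy, measured 467, 327, 277, 266 and 335 CPM in controls and 542, 511, 303 and 436 CPM with antibiotics, at 1.34-fold (95% interval 1.00 to 1.79, edgeR unadjusted p = 0.0484, adjusted p = 0.266). Control 1 and antibiotics 3 crossed the group boundary for Acaa1b. The 2 transcripts share 1428 nt at 96.6% identity, which leaves the division of counts between the copies uncertain. The Acaa1b share of both was 71.1 ± 5.71% (SD, n = 5) in controls and 72.0 ± 4.16% (SD, n = 4) with antibiotics.

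Ehhadh, the peroxisomal bifunctional enzyme and a classical PPARalpha target, measured 163, 160, 145, 152 and 178 CPM in controls and 182, 162, 177 and 155 CPM with antibiotics, so the groups overlapped almost fully (edgeR adjusted p = 0.629). Pex11a, which helps peroxisomes divide, measured 68.7 to 84.8 CPM in controls. With antibiotics, 3 libraries lay above that range at 94.7, 98.4 and 95.5 CPM and library 3 within it at 70.7 CPM. The median log2 fold change of the 4 peroxisomal members was 0.28.

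The 3 omega-oxidation members had lower means with antibiotics and the widest spread of the compartments among controls. Cyp4a14 (chromosome 4, 115486200 to 115496142), one of the most inducible PPARalpha targets, measured 150, 313, 320, 328 and 294 CPM in control libraries 1 to 5 and 245, 240, 215 and 220 CPM in antibiotics libraries 1, 2, 3 and 5. The antibiotics libraries were all below 4 of the controls and above control 1. The fold change was 0.818 (95% interval 0.613 to 1.09, edgeR adjusted p = 0.452). Without control library 1 the log2 fold change was -0.45 and the edgeR adjusted p was 0.0329, lower with antibiotics. Over the 9 fits that each left out 1 library, the adjusted p of Cyp4a14 ran from 0.0329 to 0.616.

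Cyp4a10, its neighbour, measured 95.1, 234, 219, 153 and 211 CPM in controls and 130, 160, 148 and 189 CPM with antibiotics, again lowest in control 1 (edgeR adjusted p = 0.655, and 0.235 without control 1). Its adjusted p reached 0.873 among the 9 fits without 1 library. Cyp4a31 stayed at 9.10 CPM or less in every library, with a 95% interval of the fold change from 0.435 to 1.78. Cyp4a10 shares 1593 nt at 96.1% identity with Cyp4a31 and 1530 nt at 97.2% with Cyp4a32, which makes the split of counts among them uncertain. The median log2 fold change of the 3 genes was -0.22 over all libraries and -0.42 without control library 1. Other Cyp4a genes had higher means with antibiotics, at 1.06-fold for Cyp4a12a, 1.30-fold for Cyp4a12b and 1.14-fold for Cyp4a32 (edgeR adjusted p = 0.875, 0.444 and 0.784).

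Bdh1, which reduces acetoacetate to beta-hydroxybutyrate as the last step of ketogenesis, measured 158 to 208 CPM in the 5 controls and 169 to 197 CPM in the 4 antibiotics libraries, at 1.05-fold (95% interval 0.908 to 1.21, edgeR adjusted p = 0.755).

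Among the other PPARalpha targets, both low-abundance fasting genes were lower with antibiotics. Fgf21 (ENSMUSG00000030827.5, chromosome 7, 45613886 to 45615490) measured 3.58, 2.79, 2.88, 4.79 and 6.09 CPM in controls and 1.90, 1.84, 1.88 and 3.01 CPM with antibiotics (libraries 1, 2, 3 and 5). In 3 of the 4 antibiotics libraries it was below every control, and library 5 overlapped. Its log2 fold change was -0.85 ± 0.27 (SE, edgeR unadjusted p = 0.00814, adjusted p = 0.115).

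Pdk4 (ENSMUSG00000019577.6, chromosome 6, 5483351 to 5496309) encodes the kinase that shuts pyruvate dehydrogenase when fat is burned. It measured 8.10, 4.78, 4.75, 7.85 and 5.25 CPM in controls and 3.40, 4.29, 3.15 and 3.78 CPM with antibiotics, with no overlap. Its log2 fold change was -0.75 ± 0.20 (SE, 0.596-fold, edgeR unadjusted p = 0.00288, adjusted p = 0.0694). The adjusted p ran from 0.0515 to 0.178 over the fits without 1 library. Angptl4, a secreted inhibitor of lipoprotein lipase, measured 129 to 162 CPM and 102 to 141 CPM (log2 fold change -0.22 ± 0.10 SE, edgeR unadjusted p = 0.0502, adjusted p = 0.271).

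Fabp1, the fatty acid binding protein of the hepatocyte cytosol and carrier of the spaced repeat shown above, measured 3501 ± 488 CPM (SD, n = 5) and 3286 ± 282 CPM (SD, n = 4), with overlapping groups (edgeR adjusted p = 0.744). Plin2, a lipid droplet coat protein, measured 345 to 586 CPM and 349 to 424 CPM (edgeR adjusted p = 0.667), and its highest value was in control 5. Vnn1, a pantetheinase, was the 1 gene of these 6 above 0, at 24.1 to 46.9 CPM in controls and 36.8 to 51.4 CPM with antibiotics (1.21-fold, edgeR adjusted p = 0.446). The median log2 fold change of the 6 targets was -0.18, and -0.12 without antibiotics library 3.

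**Figure D3:**
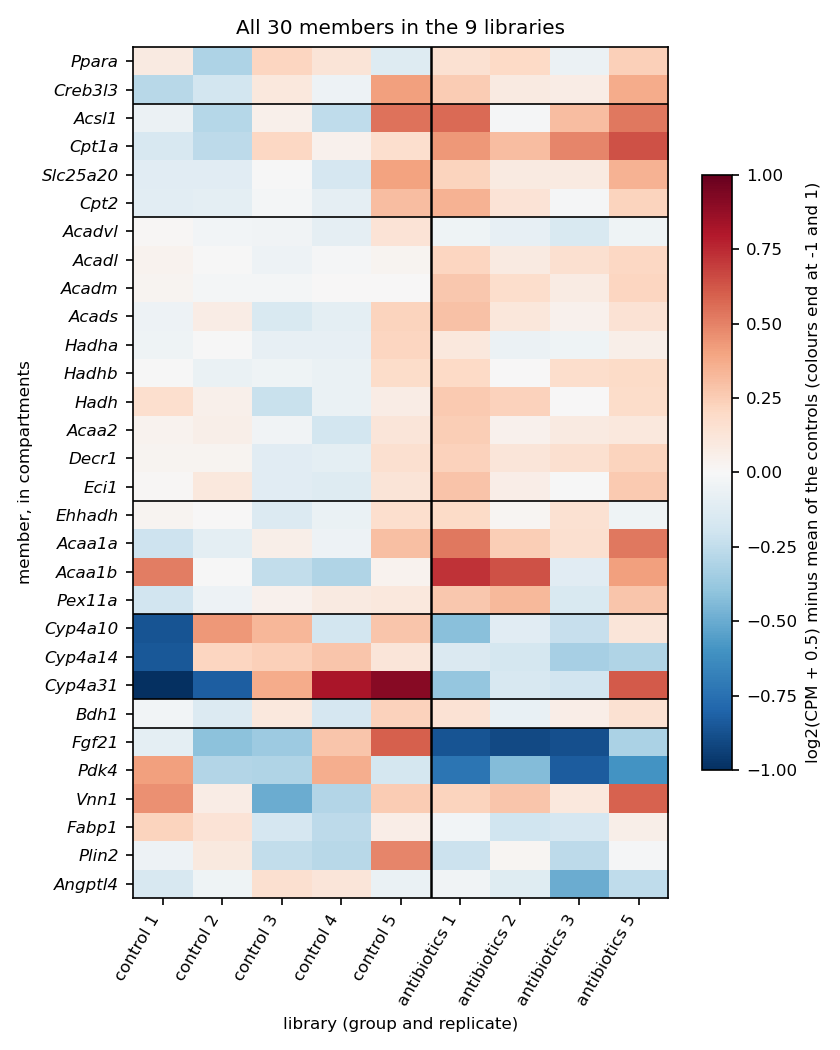
Each member (rows, grouped by compartment) in each library (columns), coloured by log2(CPM + 0.5) minus the mean of the 5 controls. Control 5 is red across the shuttle rows, control 1 is blue in the 3 Cyp4a rows, and the 4 antibiotics columns are blue in the Fgf21 and Pdk4 rows.

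Per kilobase of merged exon, the level of the members spanned more than 3 orders of magnitude within controls. Fabp1 stood at 6331 CPM per kilobase, followed by Acaa2 at 429, Acaa1b at 170, Acadvl at 132 and Plin2 at 122. Cpt1a stood at 57.2 and Ppara at 31.5. The lowest were Fgf21 at 4.23, Cyp4a31 at 2.21 and Pdk4 at 1.75 CPM per kilobase. The members with the largest downward differences were thus among the 3 with the lowest levels.

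The libraries of 1 group also differed among themselves. Control 5 was the highest control in 18 of 30 members, against 29.1% of all tested genes, and control 1 the lowest in all 3 Cyp4a genes. As a mean over members of log2(CPM + 0.5) relative to the controls, the shuttle genes stood at -0.11, -0.19, 0.06, -0.12 and 0.36 in controls 1 to 5 and at 0.39, 0.13, 0.22 and 0.43 in antibiotics libraries 1, 2, 3 and 5. The mitochondrial beta-oxidation genes stood at 0.02, 0.02, -0.09, -0.08 and 0.13 in controls and at 0.21, 0.07, 0.05 and 0.15 with antibiotics. In both compartments control 5 lay within the range of the antibiotics libraries. The mitochondrially encoded mRNAs stood at 0.08, -0.14, 0.27, -0.05 and -0.16 in controls and at 0.34, 0.58, 0.41 and -0.06 with antibiotics. Antibiotics library 5 was thus the highest antibiotics library for the shuttle genes and the lowest for the mitochondrially encoded mRNAs.

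**Figure D4:**
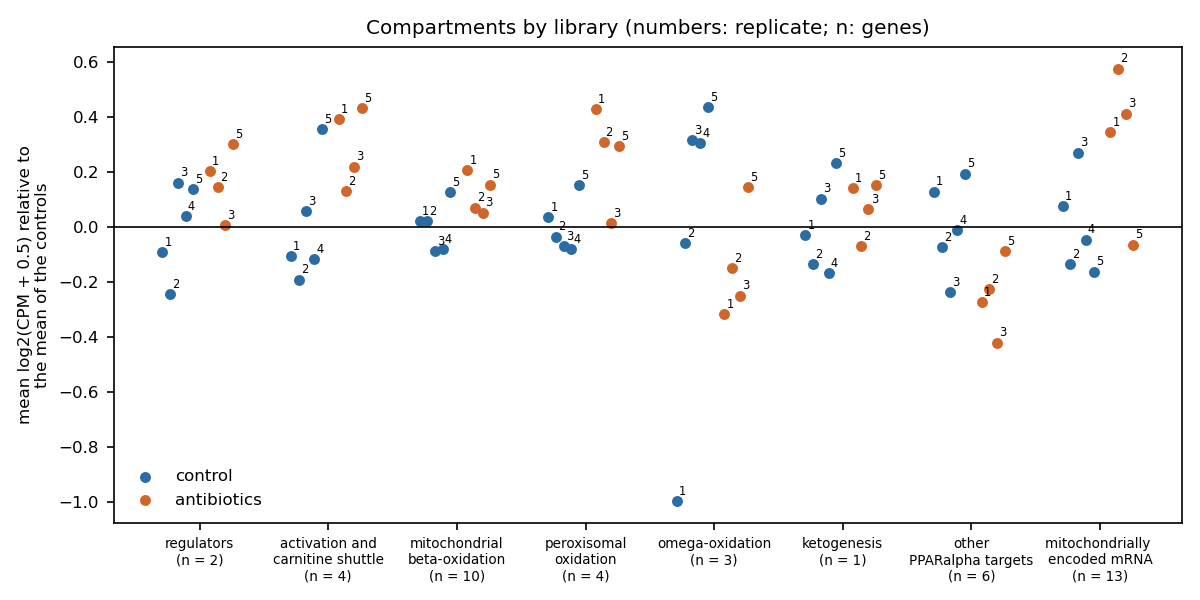
Mean over the genes of a compartment of log2(CPM + 0.5) relative to the mean of the controls (y axis), 1 point per library with its replicate number, and the mitochondrially encoded mRNAs for comparison. Control 5 reaches 0.36 for the shuttle, within the antibiotics libraries at 0.13 to 0.43, and control 1 is the lowest library for omega-oxidation.

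The wider pathway was followed in 119 further symbols, of which 117 were in the count table and 111 were tested. Of these, 5 passed, all higher with antibiotics, and 0 were called lower. A log2 fold change above 0 was seen in 86 and one below 0 in 25 (median 0.12). The 5 were 4.50% of the 111, against 1.63% of all tested genes called higher. Acad10 and Acad12, relatives of the acyl-CoA dehydrogenases, rose 1.22-fold and 1.30-fold (edgeR adjusted p = 0.0405 and 0.0420). Decr2, the peroxisomal dienoyl-CoA reductase, rose 1.28-fold, from 128 to 148 CPM in controls to 155 to 195 CPM (edgeR adjusted p = 0.0436). Cyp4f15, a fatty acid hydroxylase, rose 1.32-fold, from 68.6 to 84.8 CPM in controls to 91.4 to 108 CPM (edgeR adjusted p = 0.0330). The acyl-CoA thioesterase Acot3 measured 1.54 to 2.86 CPM in controls and 2.74, 4.18, 18.7 and 38.6 CPM in antibiotics libraries 1, 2, 3 and 5 (edgeR adjusted p = 0.0393), so that 2 libraries carried its difference, and limma-voom gave 0.105. Of the 9 fits that left out 1 library, Acad12 passed in 0 (lowest adjusted p = 0.0513) and Acad10, Decr2, Cyp4f15 and Acot3 in 2 each, with adjusted p up to 0.124, 0.119, 0.102 and 0.120.

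Further genes of the ketogenesis list gave no call among 8, where the monocarboxylate carrier Slc16a1 measured 0.778-fold and Acat1 1.15-fold. Uptake and activation genes gave no call among 17, with the smallest p-values for Acsm3 (1.27-fold, edgeR adjusted p = 0.0628), Acsl3 (0.618-fold, 0.151) and Slc27a2 (1.21-fold, 0.195). Partners of the receptor gave no call among 12. The coactivator Ppargc1a had the smallest p-value of these, at 16.9 to 21.7 CPM in controls 1 to 4, 7.89 CPM in control 5 and 11.7 ± 2.39 CPM (SD, n = 4) with antibiotics (edgeR adjusted p = 0.248), followed by Ncor1 (0.885-fold) and Sirt3 (1.09-fold). Without adjustment, 1 of the 12 partners, 5 of the 17 uptake genes and 2 of the 8 ketogenic genes had a p under 0.05, which is 8.33%, 29.4% and 25.0% against 18.5% of all tested genes.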

How the data were processed

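The authors took RNA from frozen mouse liver with Trizol and RNeasy columns and made stranded mRNA libraries, per the labels' protocols. They deposited 1 table of estimated counts per gene, and the submitters' processing notes name Salmon and GRCm38. Salmon's version, the annotation release and whether strand entered the counting are not stated there. The estimated counts were already whole numbers. GENCODE M21 holds all 54393 identifiers of the table and supplied symbols, positions and merged exon lengths. Sample titles gave the groups and replicate numbers.

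Low-count genes were removed with filterByExpr (minimum count 10, minimum total 15). The remaining 14873 genes were scaled by TMM and tested in edgeR 4.0.16 (glmQLFit and glmQLFTest, R 4.3.3). The model held group alone, p-values were adjusted over these genes by the Benjamini-Hochberg method, and the threshold was 0.05. SEs come from the fold change and F, and intervals are 95%. Counts were simulated for 14873 genes with 5 control and 4 antibiotics libraries, and 50 genes drawn at random were changed at each fold. The test gave back 10% of the 1.25-fold changes, 42% of the 1.5-fold, 64% of the 2-fold and 96% of the 3-fold, with 6 false among 112 calls.

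Alternatives were DESeq2 1.42.0, limma 3.58.1 (voom), other scalings and filters, thinning to the smallest library total, and a fit without the mitochondrially encoded mRNAs. Also run were a block on the replicate number (without control 4, whose number has no partner) and fits that each left out 1 library. BLAST+ 2.17.0 found close copies (minimum identity 95%, minimum length 200 nt). Exons of Acsl1, Acadvl, Hadha, Acaa1a, Acaa1b and Bdh1 overlap genes on the other strand. The members, compartments and lists were chosen with earlier results of these data known. Genes outside the members were named if they passed or if they had 1 of the 3 smallest p-values in a list with no pass; some that the rule names are not reported here. The list of other PPARalpha targets was included in the total of further genes. Libraries of a group differed beyond sampling noise (chi-square per degree of freedom at least 20.2). No label ties each library to its own mouse, so p-values cover the spread among libraries, which may be technical.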

Additional observations from a re-analysis of the deposited data

Results flagged for a closer look

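Among 60 groups of libraries (30 members in each of 2 groups), 8 held a library set apart from the rest of its group by a gap large against the group's range, where chance alone flags about 1 in 20 groups. Control library 5 was the high one in 4 of them: Slc25a20 at 88.7 CPM (others 59.4 to 66.6), Cpt2 at 130 CPM (others 97.8 to 104), Hadha at 305 CPM (others 247 to 262) and Hadhb at 198 CPM (others 166 to 174). Control library 1 was low for Cyp4a14, at 150 CPM against 294 to 328. Among antibiotics libraries, library 2 was low for Hadhb at 175 CPM (others 197 to 200), library 3 was low for Pex11a at 70.7 CPM (others 94.7 to 98.4), and library 5 was high for Fgf21 at 3.01 CPM (others 1.84 to 1.90). The same library stands behind several of these values, so they are not independent of each other.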

How the results depend on the processing

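The count of 0 members called became 5 with DESeq2 and 1 with the replicate block (Cpt1a, adjusted p = 0.0490), which also left out control library 4, as its number has no antibiotics partner. Without that library and with no block it was 0. It ran from 0 to 2 over the 9 fits without 1 library. It stayed at 0 with limma-voom, with the other scalings, filters and thinning, and without the mitochondrially encoded mRNAs. Over all genes, 398 calls became 976 with DESeq2. They became 144 without control library 4 and 179 with the replicate block on those same 8 libraries. Calls ran from 36 (without antibiotics library 5) to 455 (without control library 5). Same-numbered libraries did not deviate together (correlations of -0.002, -0.06, 0.03 and 0.10 for numbers 1, 2, 3 and 5), so the numbers were not taken as pairs. With the replicate block the 5 pathway genes called outside the members had adjusted p from 0.0843 to 0.116. Of 570 alternative values of single members, 548 kept their sign and side of the threshold, 10 newly passed, and 12 changed sign, in 3 members with main values near 0 or wide errors. Hadha turned to -0.0045 with no filter, -0.0010 without the 10 most abundant genes in the library sizes and -0.0064 with the replicate block, and ran from -0.021 to 0.071 without 1 library. Cyp4a31 turned to 0.29 with limma-voom and 0.16 with the replicate block, and ran from -0.52 to 0.063 without 1 library. Plin2 ran from -0.21 to 0.0011 without 1 library. The causes of these shifts were not tested. The median of each compartment moved under each alternative run by less than the SD of its score between libraries, taken from the group with the larger SD. Leaving out 1 library could hardly move a median that far, so this says little about those fits. For omega-oxidation that SD was 0.59, in controls, and the shift of its median without control library 1, given above, was judged against it. In the simulation, detection of 1.25-fold changes was limited at this number of libraries. Its changed genes were drawn from all tested genes, so detection was not measured for the members themselves.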
